A study of Mus musculus with 10 samples.

Results

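The RNAs described here are the replication-dependent histone mRNAs and small non-coding RNAs of a mouse acute lymphoblastic leukaemia line. They were chosen by gene symbol. A row of the count table was taken if its symbol began with Hist1h, Hist2h, Hist3h, Hist4h, Snora, Snord, Scarna or Rnu, or was Rmrp, Rpph1 or Lars2, and if its counts summed to 10 or more over the 10 libraries. Of 29955 rows, 179 met the symbol rule and 145 also met the count rule. They comprised 56 histone rows, 30 Snora, 48 Snord, 6 Scarna and 2 Rnu rows, and Rmrp, Rpph1 and Lars2. Just inside the count rule lay Hist1h4b with 12 counts and Snord23 with 13, and just outside lay Rnu11 and Snord85 with 9 each. Of the 34 rows under the limit, 22 had 0 counts.

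The cells were a murine Philadelphia chromosome-positive lymphoblastic leukaemia line that carries the p185 form of BCR-ABL1, the fusion kinase that dasatinib inhibits. All groups share this fusion and the same culture medium. Lines were derived from it by growth in rising drug concentrations, and 3 libraries came from the step called dasatinib IC90 1x (replicates A, B and C) and 3 from the step called dasatinib IC90 16x (A, B and C). The drug-free libraries were 1 from the DMSO 1x line, 1 from the DMSO 16x line and 2 from the untreated parental line (A and B). Only 1 parental line underlies the study. The labels call the dasatinib replicates biological but do not say whether they came from separate cultures, so p-values measure the spread between these samples only. The labels name total RNA and an Illumina TruSeq library, and do not say how messenger RNA was enriched.

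Most messenger RNAs end in a poly(A) tail. The replication-dependent histone mRNAs instead end just after a short stem-loop, which the protein Slbp binds, and they accumulate in S phase when new chromatin is packed. Some of these genes also give polyadenylated transcripts that run past the stem-loop. Snora RNAs guide pseudouridylation and Snord RNAs guide ribose methylation of ribosomal RNA, Scarna RNAs act on spliceosomal RNAs in Cajal bodies, and Rnu73a and Rnu73b are older names for a snoRNA and not spliceosomal RNAs. Rmrp and Rpph1 are the RNA parts of RNase MRP and RNase P, which process ribosomal RNA and transfer RNA precursors. Lars2 encodes the mitochondrial leucyl-tRNA synthetase. It is a coding gene that the symbol rule includes beside these RNAs.

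The stem-loops show how alike the 3′ ends of these histone mRNAs are. The search used the 16-base histone stem-loop consensus, on the transcript strand of the GENCODE vM21 transcripts (GRCm38), where 0.155% of 55341 genes hold a match, or 86 genes. All 56 histone members were in that annotation, 39 of them with a match, and 45 of the 56 lie on chromosome 13, 8 on chromosome 3, 2 on chromosome 11 and 1 on chromosome 6. The lines below give 5 bases on either side of the stem-loop, which is in capitals, for 3 pairs of genes that share a stem-loop but differ in the levels described further on.
Hist1h1e: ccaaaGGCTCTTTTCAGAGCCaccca
Hist1h2ae: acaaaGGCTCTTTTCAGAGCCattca
Hist1h3f: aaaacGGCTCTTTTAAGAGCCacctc
Hist1h3c: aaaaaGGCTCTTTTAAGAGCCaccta
Hist2h4: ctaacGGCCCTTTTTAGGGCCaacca
Hist1h4i: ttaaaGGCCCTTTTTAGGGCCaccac
The first form was the most frequent, in 21 members of the H1, H2A, H2B and H3 families and in no H4 member. The second was found in 5 members of the H2B and H3 families. The H4 members had forms of their own. The most frequent of these, in 6 members, is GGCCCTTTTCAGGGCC, and the form of Hist2h4 and Hist1h4i was found in those 2 members only. The 17 histone members without a match included 13 whose annotated transcript is under 500 bases long, so a missing match says only that these letters are not in the annotated transcript.

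The RNase MRP and RNase P RNAs are shown because they had the highest ratios of dasatinib 1x B to A and C among the non-coding members with 0.5 CPM or more on average. They are also GENCODE vM21 transcripts (GRCm38), from chromosome 4 for Rmrp and chromosome 14 for Rpph1, of which the first 300 bases are given. Capitals mark bases that lie in a run of 50 bases also found in a transcript of another gene.
Rmrp: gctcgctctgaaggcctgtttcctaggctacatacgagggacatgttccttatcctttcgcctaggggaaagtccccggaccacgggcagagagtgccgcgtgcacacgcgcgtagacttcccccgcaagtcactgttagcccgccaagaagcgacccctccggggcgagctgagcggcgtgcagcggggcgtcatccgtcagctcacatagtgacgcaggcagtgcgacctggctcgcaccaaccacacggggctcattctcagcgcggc
Rpph1: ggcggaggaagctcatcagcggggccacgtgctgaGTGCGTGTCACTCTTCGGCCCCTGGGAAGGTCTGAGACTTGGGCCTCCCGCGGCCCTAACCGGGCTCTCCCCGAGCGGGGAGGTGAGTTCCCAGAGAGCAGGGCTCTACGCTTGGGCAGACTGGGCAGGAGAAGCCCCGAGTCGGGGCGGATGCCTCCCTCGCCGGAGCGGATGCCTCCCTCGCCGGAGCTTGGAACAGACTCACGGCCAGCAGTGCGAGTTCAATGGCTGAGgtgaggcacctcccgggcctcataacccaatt
Rmrp is 271 bases long and shares no such run with another gene. Rpph1 is 319 bases long, and 233 of its bases lie in runs shared with another gene, most often Ccnb1ip1. Whether the counting used strand is not stated in any source used here, so reads of Rpph1 and of an overlapping gene cannot be told apart. The same holds for small nucleolar RNAs inside introns of their host genes, and for close histone paralogs, of which 25 of 56 shared more than 50% of their 50-base words with another gene.

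The libraries held 29049760 to 45813092 counts, and 12282 genes passed the filter on low counts and were tested. Of the 145 members, 104 were tested, namely 46 histone, 24 Snora, 29 Snord and 2 Rnu rows and Rmrp, Rpph1 and Lars2, while the other 41, with all 6 Scarna rows, were too low. Of the 104, 103 had 10 or more counts in at least 3 of the 9 libraries other than dasatinib 1x B. All 12 pro-B and pre-B cell markers were tested, with summed levels of 3400 to 3580 CPM (counts per 1000000 counts) in dasatinib 1x, 3230 to 3300 in dasatinib 16x and 3590 to 3740 in drug-free libraries, although Ebf1 was low. Of the T cell markers only Cd2 was tested and Cd4 had 0 counts, and the list summed to 145 to 159 CPM in dasatinib 1x, 228 to 243 in dasatinib 16x and 105 to 162 in drug-free libraries. Of the myeloid markers, Elane had 0 counts and the list summed to 3.63 to 8.22 CPM in dasatinib and 3.78 to 5.96 CPM in drug-free libraries. The fibroblast list stayed under 0.07 CPM, and the erythroid list was at 3.83 to 4.53 CPM in dasatinib 1x, 16.4 to 26.6 in dasatinib 16x and 4.19 to 34.6 in drug-free libraries. In these bulk samples fewer cells in S phase and less histone RNA per cell cannot be told apart.

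The first result is that 1 library, dasatinib 1x B, held far more histone mRNA than the other 9. The 56 histone rows summed to 191.6 CPM in dasatinib 1x B, against 58.5 and 62.0 CPM in its replicates A and C. The sums were 61.4 CPM in dasatinib 16x A, 62.4 in B and 65.3 in C. They were 73.0 CPM in DMSO 1x, 62.2 in DMSO 16x, and 62.4 and 63.5 in parental A and B. The sum in B was 3.18-fold the mean of A and C, while the other 9 libraries lay between 58.5 and 73.0 CPM, with a mean of 63.4 ± 4.02 (SD, n = 9). All members together took 0.464% of the counts of dasatinib 1x B and 0.12 to 0.142% of the counts of the other libraries, and most of that share was Lars2.

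**Figure D1:**
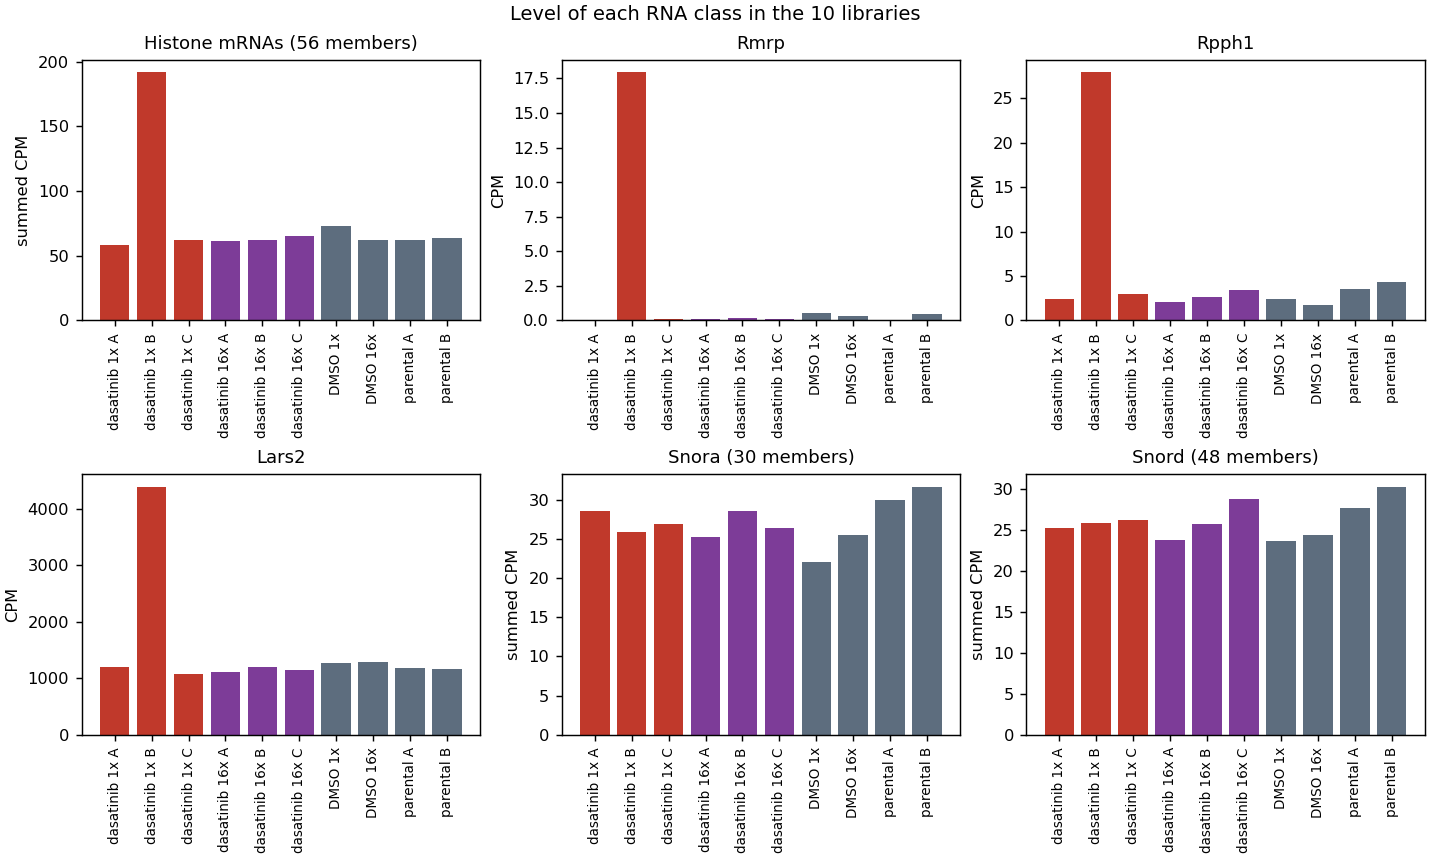
Level of 6 RNA classes in each of the 10 libraries, in CPM or summed CPM on linear axes, with 1 bar per library (dasatinib 1x red, dasatinib 16x purple, drug-free grey). Histone, Rmrp, Rpph1 and Lars2 bars are highest in dasatinib 1x B, and the Snora and Snord bars of that library (25.9 summed CPM each) lie within the range of the others.

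The excess in B was spread over the histone families. The H1 linker histones, which bind the DNA between nucleosomes, summed to 38.3 CPM in dasatinib 1x B, against 5.06 in A and 5.42 in C, 7.30-fold their mean. The H3 rows summed to 37.9 CPM in B, against 9.14 in A and 9.28 in C, a ratio of 4.11. The ratio was 2.76 for H4, at 42.8 CPM in B, against 14.7 in A and 16.2 in C. It was 2.61 for H2B, at 44.7 CPM in B, against 17.1 in A and 17.2 in C, and 2.13 for H2A, at 28.1 CPM in B, against 12.5 in A and 13.8 in C. In the 9 other libraries H1 ranged from 4.50 to 8.13, H2A from 11.6 to 15.01, H2B from 14.5 to 18.5, H3 from 8.04 to 11.2 and H4 from 14.7 to 21.0 CPM. No family's range among these 9 reached its value in B.

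Member by member, 48 of the 56 histone rows were highest in dasatinib 1x B of all 10 libraries, and 46 of 56 were at least 2-fold above the mean of A and C. Over all 12282 tested genes the shares were 7.36% highest in B and 1.33% at least 2-fold above A and C. By family, 5 of 5 H1 rows, 9 of 13 H2A, 12 of 15 H2B, 10 of 11 H3 and 10 of 12 H4 rows were at least 2-fold higher in that library than in A and C. The 56 rows include 10 that were not tested. Of the 45 histone rows with 10 or more counts in at least 3 of the other 9 libraries, 40 were highest in B and 38 at least 2-fold above A and C. Of the 12280 genes with such counts, 7.33% were highest in B and 1.27% at least 2-fold above A and C. The median ratio of the 55 rows with a count in B was 5.70, from 0.74 to 37.0. With most rows highest in B few were left for the others, and no other library was the highest for more than 2. These comparisons set 1 library against others and carry no test.

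**Figure D2:**
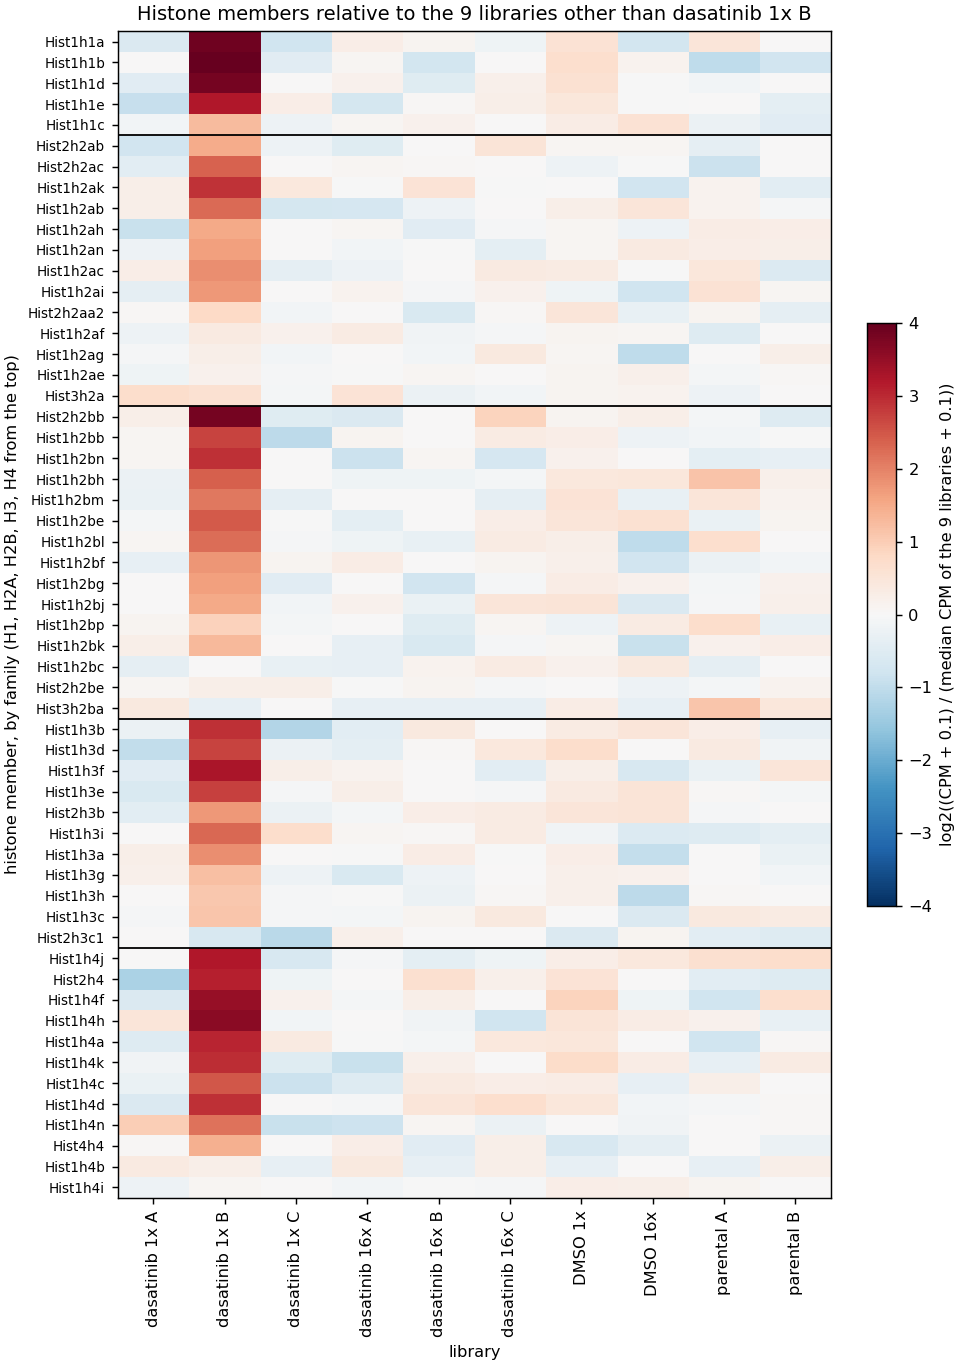
Heat map of the 56 histone members (rows, grouped by family) in the 10 libraries (columns), coloured by log2 of CPM over the median of the 9 libraries other than dasatinib 1x B, each with 0.1 added. The dasatinib 1x B column is red for most rows of every family, 48 of the 56 rows being highest there.

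The largest ratio among the histones belonged to Hist1h1a, an H1 gene, which had 6.31 CPM in dasatinib 1x B, against 0.190 in A and 0.151 in C. It had 0.418, 0.368 and 0.286 CPM in the 3 dasatinib 16x libraries and 0.547, 0.161, 0.511 and 0.335 in DMSO 1x, DMSO 16x, parental A and parental B. The value in B was 37.0-fold the mean of A and C, and the other 9 libraries did not come near it. Hist1h1b had 265 counts in B and 3 to 20 in the others, or 6.67 CPM in B, 25.7-fold its level in A and C. Hist1h1d had 267 counts in B and 8 to 23 in the others, a ratio of 21.3. Hist1h1e, with 329 counts in B and 12 to 42 elsewhere, had a ratio of 11.9. Nucleosome core histones reached similar ratios. Hist2h2bb, an H2B gene, had 135 counts in B and 3 to 15 in the others, a ratio of 25.6. Hist2h4, an H4 gene, had 2.62 CPM in B, against 0.0316 in A and 0.177 in C, and Hist1h3f, an H3 gene, had 5.76 CPM in B, against 0.348 in A and 0.630 in C. Hist1h4j rested on few reads, 68 counts in B and 4 in A and C together, a ratio of 30.5 from the summed counts (exact 95% interval 11.4 to 115, counting error only).

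Some members with many counts elsewhere had ratios near 1. Hist1h4i, an H4 gene, had 14.5 CPM in dasatinib 1x B, against 12.02 in A and 13.82 in C, a ratio of 1.12. Its levels were 12.8, 13.6 and 13.3 CPM in the dasatinib 16x libraries and 16.8, 16.1, 14.8 and 13.8 in DMSO 1x, DMSO 16x, parental A and parental B, so that B lay inside the range of the others. Hist2h2be, an H2B gene, had 10.9 CPM in B, against 9.78 in A and 10.8 in C, a ratio of 1.05. Hist1h2af (ratio 1.28), Hist1h2ag (1.25), Hist1h2ae (1.22) and Hist3h2a (1.20), all H2A genes, were also close to A and C. Hist1h1c and Hist1h3c lay between, at ratios of 2.71 and 2.24. Hist2h3c1 was lower in B, at 4 counts and a ratio of 0.74, and all of its 50-base words are shared with another gene, while Hist3h2ba had no count in B and at most 5 in any library.

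The make-up of the histone reads differed in B, which restates the unequal ratios above as shares. Hist1h4i alone took 7.57% of the histone sum in dasatinib 1x B and 20.4 to 25.9% in the other 9 libraries. The 5 members with the most counts in those 9, Hist1h4i, Hist2h2be, Hist1h2af, Hist1h1c and Hist1h3c, took 27.5% in B and 58.0 to 64.3% elsewhere. The 14 members with the most counts in the 9 had a median ratio of 2.36, and the other 42 had a median of 6.42. The ranking includes A and C, which are also the denominator of the ratio, and leaves out B. The contrast between the medians is therefore not independent of the ranking. Of the excess of B over the mean of A and C, 131 CPM in all, the 14 accounted for 45.3 CPM and the 42 for 86.1 CPM. Low members also have a wider counting error.

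**Figure D3:**
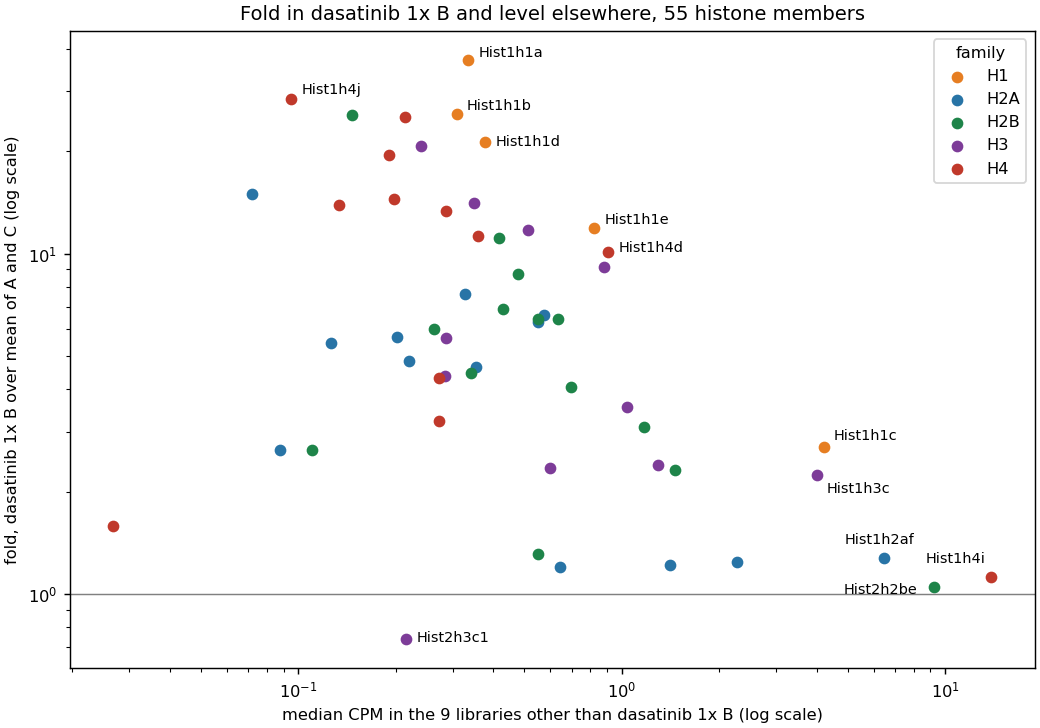
Fold of dasatinib 1x B over the mean of A and C (vertical, log scale) against the median CPM in the 9 other libraries (horizontal, log scale) for the 55 histone members with a count in B, coloured by family. Hist1h4i and Hist2h2be at the right lie near a fold of 1, and the 4 H1 members other than Hist1h1c lie between 11.9 and 37.0. Both axes include the values of A and C.

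Members with the same stem-loop could differ widely, as the printed pairs show. Hist1h1e had a ratio of 11.9 and Hist1h2ae 1.22, Hist1h3f 11.8 and Hist1h3c 2.24, and Hist2h4 25.1 and Hist1h4i 1.12. By position of the stem-loop, the median ratio was 3.92 for the 18 members whose stem-loop lies within 100 bases of the annotated transcript end, 7.93 for the 20 with more sequence after it and a count in B, and 5.70 for the 17 with no match. The ratios of the summed CPM of these groups were 3.515, 3.412 and 2.693 in that order. The difference between the first and second medians was thus not seen in the sums. The polyadenylation signal AATAAA stood in the last 40 bases of the annotated transcript of 10 histone members. These annotated ends were not measured in this line.

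The RNA of RNase MRP had the largest ratio of any member. Rmrp had 713 counts in dasatinib 1x B, or 17.9 CPM, against 1 count in A and 5 in C. The other libraries held 4, 7 and 4 counts in dasatinib 16x A, B and C, 19 in DMSO 1x, 12 in DMSO 16x, 0 in parental A and 21 in parental B. The ratio from summed counts was 213, with an exact 95% interval of 97.4 to 582 that covers counting error only. Rpph1 had 1108 counts in B, or 27.9 CPM, against 2.44 CPM in A and 3.00 in C. Its level was 2.02 CPM in dasatinib 16x A, 2.60 in B and 3.39 in C. In the drug-free libraries it was 2.46 in DMSO 1x, 1.74 in DMSO 16x, 3.54 in parental A and 4.31 in parental B. The ratio to A and C was 10.3, and the other 9 libraries lay between 1.74 and 4.31 CPM.

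Lars2 had by far the most counts of any member. It had 174772 counts in dasatinib 1x B, or 4396 CPM, against 1205 CPM in A and 1082 in C, a ratio of 3.84. The other libraries had 1108, 1191 and 1149 CPM in dasatinib 16x A, B and C, 1272 in DMSO 1x, 1295 in DMSO 16x, and 1188 and 1168 in the parental libraries. The range outside B, 1082 to 1295 CPM, was narrow beside the value in B. The table counts whole genes, so where in Lars2 the reads fall was not analysed here.

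The small nucleolar RNAs did not share the pattern. The 30 Snora rows summed to 25.9 CPM in dasatinib 1x B, against 28.7 in A and 27.0 in C, a ratio of 0.932. The 48 Snord rows summed to 25.9 CPM in B, against 25.3 in A and 26.3 in C, a ratio of 1.00. Only 1 of 30 Snora and 6 of 48 Snord rows were at least 2-fold above A and C, and all 7 had 11 or fewer counts in that library. Of the 24 Snora and 29 Snord rows with 10 counts in at least 3 of the other 9 libraries, 0 were that far above A and C. The members with the most counts gave the same picture in B. Snora65 had 4.00 CPM in B, against 3.92 in A and 4.31 in C. Snora17 had 3.47 CPM in B, against 3.99 in A and 3.00 in C, and Snord104 had 4.38 CPM in B, against 3.51 in A and 4.21 in C. At the edges of the better-counted rows stood Snora16a with a ratio of 1.54, and Snord83b, Snord53 and Snord49a with ratios of 0.503, 0.631 and 0.664.

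The 2 Rnu rows, Rnu73a and Rnu73b, summed to 1.23 CPM in dasatinib 1x B, against 1.20 in A and 0.933 in C, and to 0.848 to 1.64 CPM over the 9 other libraries. The 6 Scarna rows were at the limit of detection. They summed to 0.830 CPM in B, against 0.601 in A and 0.630 in C, with 0.328 to 0.777 CPM over the other 9. Scarna13 had 8 counts in B and 1 to 11 elsewhere, Scarna10 had 9 in B and 2 to 8 elsewhere, and Scarna6 had 4 in B and 1 to 10 elsewhere. Scarna2, the longest at 414 bases, had 9 counts in B, 1 in A and 1 in C. Annotated snoRNAs were 64 to 238 bases long, with a median of 132 for Snora and 79.5 for Snord, and Rmrp and Rpph1 were longer. Whether length moved with the ratio was not tested, since too few small RNAs of that length had counts.

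Across the study's conditions, no member was called. For dasatinib 1x against drug-free, 1.96% of all tested genes had an edgeR adjusted p of at most 0.05, and 0 of 104 members did. An unadjusted edgeR p under 0.05 was found for 16 of the 104 members and 2432 of all 12282 genes, a lower share among the members. DESeq2 called 2 members, Hist1h3i and Hist1h2ak, both higher. The 46 tested histone rows had a median log2 change of 1.23, beside -0.01 for all genes, and 43 of 46 were above 0. Without dasatinib 1x B the median was -0.20 and 14 of 46 were above 0. The histone sums averaged 104.0 ± 75.9 CPM in dasatinib 1x (SD, n = 3) and 65.3 ± 5.18 CPM in drug-free libraries (SD, n = 4), and the first mean rests on B.

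The 2 members with the smallest p-values were histones. Hist1h3i, an H3 gene, had 0.285 CPM in dasatinib 1x A, 1.79 in B and 0.530 in C. The drug-free levels were 0.246 in DMSO 1x, 0.161 in DMSO 16x, 0.170 in parental A and 0.191 in parental B. All 3 dasatinib 1x libraries lay above the drug-free ones, but A, at 0.285 CPM, was close to DMSO 1x, at 0.246 CPM. How many of all genes separate these groups in this way was not counted. The edgeR log2 change was 2.17 ± 0.56 (SE) with an adjusted p of 0.0898, and 1.08 with an adjusted p of 0.286 without B. Hist1h2ak, an H2A gene, had a log2 change of 2.18 ± 0.66 (SE) and an edgeR adjusted p of 0.136, and a log2 change of 0.66 with an adjusted p of 0.436 without B. Both share more than 50% of their 50-base words with other histone genes.

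For Rmrp, Rpph1 and Lars2 no increase remained when B was left out. The Rmrp log2 change of dasatinib 1x against drug-free was 4.11 ± 1.57 (SE, edgeR adjusted p = 0.204) with all libraries and -2.02 without B. The latter rests on 6 counts in A and C together. For Rpph1 the change was 1.88 ± 0.77 (SE, edgeR adjusted p = 0.227) and -0.15 without B. For Lars2 it was 0.86 ± 0.42 (SE; edgeR adjusted p = 0.286) and -0.11 without B. The tested Snora and Snord rows had median log2 changes of -0.03 and -0.04, and of 0.07 and 0.01 without B. The smallest adjusted p among them was 0.162, for Snord4a, at a log2 change of -1.03 ± 0.35 (SE, edgeR).

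**Figure D4:**
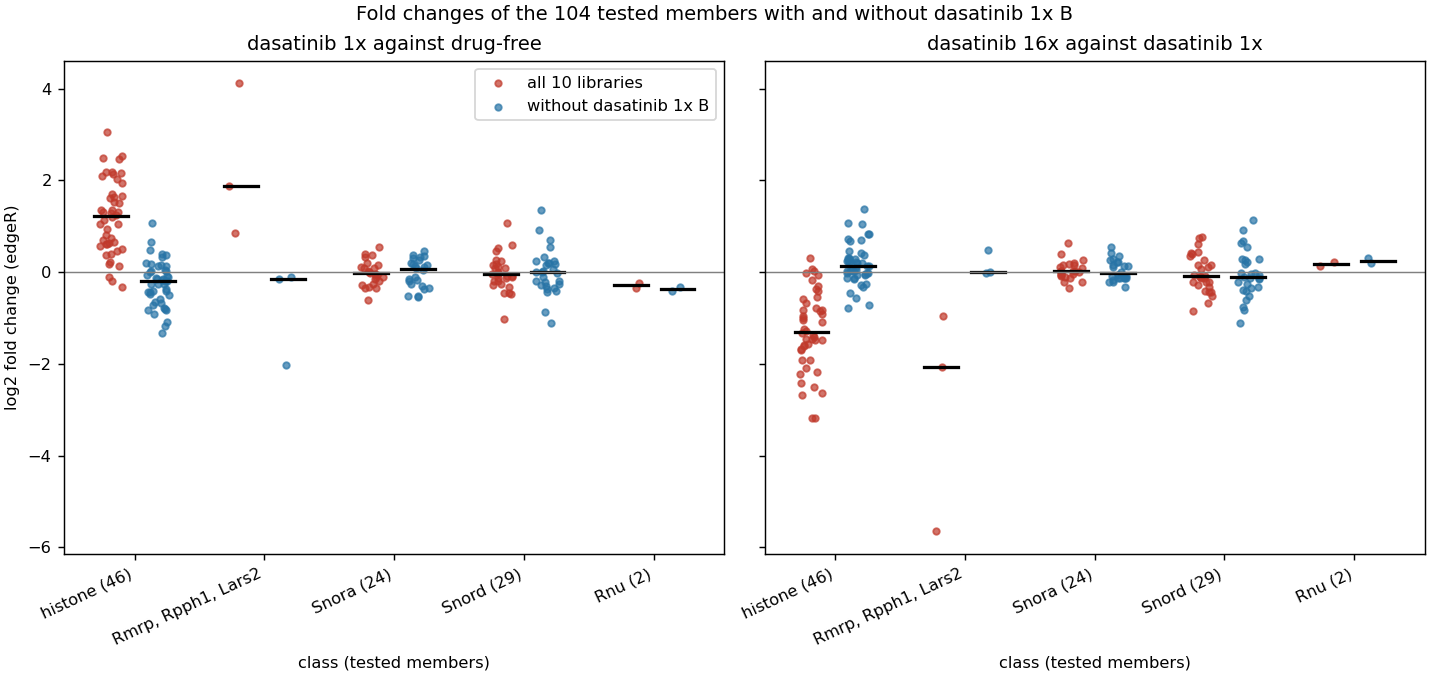
Log2 fold change of each tested member (points) and the class median (black bars) in 2 comparisons, from all 10 libraries (red) and without dasatinib 1x B (blue). The histone median for dasatinib 1x against drug-free is 1.23 with B and -0.20 without it, and for dasatinib 16x against dasatinib 1x it is -1.31 with B and 0.13 without it.

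For dasatinib 16x against drug-free, where B enters only through the shared spread, 16.1% of all genes were called (7.79% higher and 8.33% lower). Of the 104 members 0 were called, and 0 by DESeq2. An unadjusted edgeR p under 0.05 was found for 2 of the 104 members and 3861 of all 12282 genes, a lower share among the members. The histone sums averaged 63.0 ± 2.02 CPM in dasatinib 16x (SD, n = 3) and 65.3 ± 5.18 CPM in drug-free libraries (SD, n = 4). The median histone log2 change was -0.11, with 18 rows above 0 and 28 below. The smallest p-values belonged to Hist1h4i, at a log2 change of -0.22 ± 0.09 (SE; edgeR adjusted p = 0.126), and to Snord55, at -0.60 ± 0.25 (SE; edgeR adjusted p = 0.129). All 3 dasatinib 16x values of Hist1h4i, 12.8 to 13.6 CPM, lay below the 4 drug-free values of 13.8 to 16.8 CPM. The share of all genes separated in this way was not counted. Rmrp stood at 0.118 ± 0.046 CPM in dasatinib 16x (SD, n = 3) and 0.336 ± 0.241 CPM in drug-free libraries (SD, n = 4), with overlapping ranges, parental A having no count.

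For dasatinib 16x against dasatinib 1x, 2.13% of all genes were called and 0 of 104 members. An unadjusted edgeR p under 0.05 was found for 14 of the 104 members and 1942 of all 12282 genes, a lower share among the members. DESeq2 called 1, Hist1h4h, which was lower. This H4 gene had 0.198, 0.172 and 0.0716 CPM in dasatinib 16x A, B and C, against 0.316, 3.57 and 0.177 CPM in dasatinib 1x A, B and C. Its edgeR log2 change was -3.18 ± 1.06 (SE) with an adjusted p of 0.172, and -0.71 with an adjusted p of 0.661 without B. The histone median was -1.31 with B and 0.13 without it. This comparison shares its dasatinib 16x libraries with the second comparison and its dasatinib 1x libraries with the first. For the step of 16x over 1x in the dasatinib lines minus the same step in the DMSO lines, which are 1 library each, 6.74% of genes were called and 0 of 104 members by edgeR or DESeq2. The member nearest to a call was Hist1h2ag, at a log2 difference between the steps of 1.225.

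The scatter left by the fit was larger for the RNA classes with a high value in B, which itself adds to that scatter. The fit takes parental and DMSO libraries as a single drug-free class, so differences between those lines enter it too. The median biological coefficient of variation of the edgeR fit, the spread between libraries beyond counting error, was 55.6% for histone rows, 138% for Rmrp, 67.2% for Rpph1 and 37.5% for Lars2. It was 22.8% for Snora and 26.1% for Snord rows, beside a common value of 15.3% over all genes. The tests did not use these coefficients directly but quasi-likelihood spreads of the same fit. The values of B enter those spreads too, also in the 16x comparisons.

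Outside B, the H1 rows summed to 8.13 CPM in DMSO 1x and 8.10 CPM in DMSO 16x, against 4.50 to 6.35 CPM in the 7 other libraries. In DMSO 1x every H1 row was above the 7. In DMSO 16x the higher sum was mainly Hist1h1c, at 6.41 CPM, against 3.04 to 4.73 CPM in the 7. Hist1h1e, Hist1h1d and Hist1h1a lay there within the range of the 7, and Hist1h1b, at 0.349 CPM, just above it. The Snora sum was highest in the parental libraries, at 30.1 and 31.8 CPM, and the Snord sum was highest in parental B, at 30.3 CPM, with 28.85 CPM in dasatinib 16x C and 27.6 CPM in parental A. Both sums were lowest in DMSO 1x, at 22.1 CPM for Snora and 23.6 CPM for Snord. With 1 library per DMSO line these differences carry no replicate check.

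The genes that make, process or bind these RNAs did not follow B. Histone variants with poly(A) tails, such as H3f3a and H3f3b, summed to 1.04-fold the mean of A and C in B. The factors of histone mRNA transcription and 3′ processing, among them Slbp and Npat, summed to 0.999-fold, poly(A) addition and tail-binding genes to 0.994-fold and S phase genes to 1.01-fold. The proteins of small nucleolar particles were at 1.01-fold, the snoRNA host genes at 1.02-fold and the RNase P and MRP proteins at 1.02-fold. Slbp, the stem-loop binding protein, had 263 CPM in B, against 262.6 CPM in A and 262.7 CPM in C. No tested gene of these lists was 2-fold above A and C. Among other RNAs without a tail or kept in the nucleus, Terc, the telomerase RNA, had 16 counts in B and 8 to 21 elsewhere, and Malat1, a nuclear RNA, had 116.7 CPM in B, against 129.9 in A and 114.7 in C. For dasatinib 1x against drug-free, edgeR and its adjusted p called 0 genes of the 8 lists.

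At dasatinib 16x against drug-free part of the S phase list fell, while no histone row was called. Of the 26 tested S phase genes 15 fell and 0 rose, with a median log2 change of -0.18. Over all tested genes 8.33% fell and 7.79% rose. The histone rows had a median log2 change of -0.11, with 28 of 46 below 0. Their median biological coefficient of variation, which the tests did not use directly, was 55.6%. Whether a change as small as -0.18 could be called in them, and whether they fell less than the S phase genes, was not tested. Lig1, the replicative DNA ligase, averaged 225 ± 8.92 CPM in dasatinib 16x (SD, n = 3) and 283 ± 10.1 CPM in drug-free libraries (SD, n = 4), a log2 change of -0.33 ± 0.04 (SE; edgeR adjusted p = 0.000813). Uhrf1, which recruits the maintenance DNA methyltransferase, fell by 0.32 on the log2 scale. Of 8 tested polyadenylated variants 3 fell, namely H2afx, the DNA damage variant, by 0.50, H3f3a by 0.27 and H1f0 by 1.33 on the log2 scale. The shares that fell in the next 3 lists lie near that of all genes. In histone processing 2 of 27 fell, Casp8ap2, a partner of Npat, and Cstf2, and in the poly(A) list 2 of 17 fell, Cnot1 and Cnot6 of the deadenylase complex. Of 16 small nucleolar particle genes 1 fell, Fbl, the methyltransferase of Snord particles, and 0 of 25 host genes were called. Pop5 and Rpp40, 2 of 8 RNase P and MRP proteins, rose by log2 changes of 0.44 and 0.25, and Tug1, 1 of 6 tested nuclear or tail-less RNAs, fell by 0.25.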

How the data were processed

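RNA sequencing of 10 libraries was analysed from the deposited table of raw counts per gene. Per the submitters' processing notes the authors used CASAVA 1.7.0, Trimmomatic 0.33, TopHat2 2.0.12, BWA 0.7.10, SAMtools and HTSeq 0.6.1 with the mm9 build. Which of these made the counts, the strand setting and the treatment of reads with several matches were not given in the sources used here, and the treatment of such reads bears on histone paralogs.

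Tests used R 4.3.3 and edgeR 4.0.16 (filterByExpr at 10 counts, TMM, robust quasi-likelihood test) in a fit of 3 classes: dasatinib 1x, dasatinib 16x and drug-free. P-values were adjusted by Benjamini and Hochberg over 12282 genes at 0.05. CPM used TMM-effective library sizes. Each SE of an edgeR log2 change is the absolute change over the square root of its quasi-likelihood F statistic. Such an SE is approximate. Class sums, and ratios of dasatinib 1x B to the mean of A and C, carry no test. On simulated data with 200 changed genes, 67%, 72.5% and 75% were recovered for dasatinib 1x against drug-free (12154 genes), dasatinib 16x against drug-free (12162) and dasatinib 16x against dasatinib 1x (12160), with 10, 15 and 4 false calls. The changed genes were drawn from all tested genes and given the same fold in every library of a class. These rates therefore do not give the recovery expected for the members.

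Members and lists were chosen with earlier results of these data known. Named by rule were the 3 members with the most counts in each class, Rmrp, Rpph1 and Lars2, the 3 highest and 3 lowest ratios in B at 0.5 CPM or more, and called genes of the lists; further members were named after their values were seen. Sequences were read from GENCODE vM21 (GRCm38) with Python 3.11.15, and 144 of 145 members matched by symbol. The deposited values other than counts were not used here. Other settings were RLE scaling, no filter, DESeq2 1.42.0, a replicate block, a fit of 5 groups, the parental libraries alone and leaving out each library.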

Additional observations from a re-analysis of the deposited data

Results flagged for a closer look

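The 41 sums and members checked for a sample far from the others of the drug-free class gave 2 such results, and chance gives about 1 in 20. The histone summed CPM of the 4 drug-free libraries had 73.0 in DMSO 1x, against 62.2 in DMSO 16x and 62.4 and 63.5 in the parental libraries. The gap from DMSO 1x to the nearest of these was 0.886 of the range, above the critical value of 0.829. Hist1h1d, an H1 gene, had 0.629 CPM in DMSO 1x, against 0.375 in DMSO 16x and 0.341 and 0.383 in the parental libraries, and its gap was 0.855 of the range. Groups of 3, such as the dasatinib 1x libraries, were not checked this way.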

How the results depend on the processing

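With edgeR's 3-class fit, 0 of the 104 tested members were called in any of the 3 comparisons, against 241 genes for dasatinib 1x against drug-free, 1980 for dasatinib 16x against drug-free and 262 for dasatinib 16x against dasatinib 1x. The count of members stayed at 0 with RLE scaling, with no filter, with the replicate block and without each library in turn. DESeq2 called 2 members in the first comparison and 1 in the third, and the fit of 5 groups called 1 in the first (Hist1h3i) and 1 in the second (Hist1h4i, adjusted p = 0.0268). With the parental libraries alone as reference, 1 was called in the second (Snord2, lower, adjusted p = 0.0149). Of 1536 alternative fits of the 99 pairs of a comparison and a member named by rule, 1535 stayed on the same side of the threshold. The other was that of Hist1h4i. Hist1h3i, Hist1h2ak, Hist1h4h and Snord2, each called in at least 1 other setting, were not among these pairs.

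Over all genes, DESeq2 called 853 in the first comparison and 805 in the third, and the fit of 5 groups called 3449, 4542 and 1669. The parental libraries alone gave 708 and 3252. Leaving out 1 library gave 17 to 516 calls in the first comparison. Dropping dasatinib 1x A left 18, dropping B 17 and dropping C 36, while dropping DMSO 1x left 65 and dropping DMSO 16x 516. It gave 1005 to 2765 in the second, at 1058 after dropping dasatinib 16x A, 1005 after C and 1302 after DMSO 1x. It gave 41 to 978 in the third, at 45, 55 and 41 after dropping dasatinib 1x A, B or C, 155 and 88 after dasatinib 16x A or C, 135 after DMSO 1x and 978 after DMSO 16x. For the step of 16x over 1x, dasatinib minus DMSO, 828 genes were called, and 538 to 1248 when 1 library was left out, at 1248 after dropping dasatinib 16x B, 539 after dasatinib 1x C, 542 after parental A and 538 after parental B. The cause of these shifts was not tested.

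The replicate letters were not used to pair the libraries in the main fit. Deviations of each gene from its group mean, in log2 CPM, were compared between same-letter dasatinib 1x and 16x libraries. These deviations, not the levels themselves, correlated at 0.0647 (A), 0.0273 (B) and 0.0517 (C). With 3 libraries per group such values cannot decide whether the letters mark paired cultures. A replicate block gave 54 calls in the first comparison and 408 in the third. The step could not be fitted with the block.

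The histone ratio of dasatinib 1x B to A and C, 3.18, was 3.74 without Hist1h4i, 3.09 against C alone and 3.28 against A alone. The last 2 were chosen after seeing the data. Rmrp rests on few counts outside B, and its ratio was 567 against A alone and 142 against C alone. Small RNA rows have few counts, so a 2-fold difference in a single row was often not detectable at this depth.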

Other observations

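Outside the members, the 10 tested genes with the highest ratio of dasatinib 1x B to the mean of the other 9 libraries were led by AK144265 and Mir715. AK144265 had 196 CPM in B, against 22.3 in A and 24.4 in C, and 21.0 to 31.0 CPM over the 9 others. Mir715 had 108 CPM in B, against 16.3 in A and 15.9 in C, and 12.9 to 17.5 CPM over the 9 others. Both ranges lie far below B, as for Lars2. Of the other 8, Snx7 had a ratio of 2.68 to A and C and Acot11 of 1.97, while Arhgef5, Mmp13 and Spna1 were at 1.09, 1.18 and 0.966, so that B lay close to A and C. Of the 163 tested genes at least 2-fold above A and C in B, 42 were members, or 25.8%. Against the median of the other 9 libraries, 42 of the 110 genes at least 2-fold higher in B were members, and each of the other libraries had 0 to 4 such members among 76 to 710 genes.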
